A study of Mus musculus with 11 samples.

Results

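Cytochrome P450 enzymes are haem proteins that insert an oxygen atom into fatty acids, sterols, vitamins, drugs and other foreign compounds. Most sit in the endoplasmic reticulum and take their electrons from the P450 reductase encoded by Por, whereas those of mitochondria use ferredoxin. In the kidney they are best known in the proximal tubule, where they turn arachidonic acid into epoxides and hydroxylated products that act on vessel tone and salt transport, and where vitamin D is activated and broken down.

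The genes described here were the mouse P450 genes named in the usual form (Cyp, family number, subfamily letter, gene number) with at least 50 counts summed over all kidneys, except Cyp4a10 and Cyp4a14. Of 25677 genes listed, 81 had such a symbol, 34 of them were under 50 counts, and 45 formed the set. The lowest genes inside the limit were Cyp8b1 with 56 counts and Cyp2c38 with 59, and the highest outside it were Cyp2ab1 with 46 and Cyp17a1 with 41. They fell into 27 subfamilies, of which 21 held 1 gene each. A count of reads per gene was available for 11 kidneys of 21-week-old female mice. The 3 control kidneys (Ctr) came from C57BL/6J mice, whose genotype is given in the labels as C57B6. The 4 Lpr kidneys came from MRL/lpr mice, a strain that carries the lpr mutation of the death receptor gene Fas and develops lupus-like nephritis. The 4 DNase kidneys came from MRL/lpr mice injected daily into the peritoneum with DNase I, an enzyme that digests DNA, from week 17 on. How the other 2 groups were injected, if at all, was not given in the sources used here. Strain and disease set every MRL/lpr kidney apart from Ctr at once, and they cannot be told apart in any comparison with Ctr.

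Total counts ranged from 33469858 to 38460873 per kidney. Levels below (CPM) are counts scaled to a common library total, after each kidney's total was adjusted by its TMM factor from edgeR. Lpr replicate 3 stood apart from the other libraries: its log2 level relative to the mean of all kidneys fell with gene length at a slope of -0.44, against -0.04 to 0.08 in the other 10 libraries, and its FPKM summed over all genes to 592701, against 439093 to 477957. Its counts differed from those of the other Lpr kidneys by a chi-square of 385 to 393 per degree of freedom, where the other Lpr pairs had 55.0 to 85.7. Its part in values not given without it was not tested. Without it, 4 P450 genes were higher and 9 lower in Lpr than in Ctr, against 3 and 7 with it. Proximal tubule markers were abundant in every kidney, with summed levels of 12924 to 14955 CPM in Ctr, 6674 to 13211 CPM in Lpr and 9447 to 13198 CPM in DNase. The 6674 CPM was the sum of Lpr replicate 3. In whole kidney, fewer cells of a type and less RNA per cell cannot be told apart.

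Per gene length, the transcripts of the 45 genes came mostly from few of them. Cyp4a14 (227273 counts over all kidneys) and Cyp4a10 (173565 counts) were outside the set and are not in these values. In the deposited FPKM values, which scale fragments for gene length and library total, 14 of the 45 genes had a mean of at least 10 over the 11 kidneys, 12 lay between 1 and 10, and 19 were under 1. By the mean over all 11 kidneys, 8 of which are MRL/lpr, the 8 highest of the 45 were Cyp4b1 (mean 265 FPKM), which hydroxylates fatty acids and activates some foreign compounds, Cyp2j5 (242 FPKM), an arachidonic acid epoxygenase of the proximal tubule, Cyp2d26 (115 FPKM), Cyp2a4 (101 FPKM), a steroid hydroxylase, Cyp4a31 (99.4 FPKM), of the fatty acid omega-hydroxylases, Cyp2a5 (88.1 FPKM), which hydroxylates coumarin and nicotine, Cyp2j11 (78.3 FPKM) and Cyp2e1 (77.0 FPKM), which oxidises ethanol and small solvents. In the Ctr kidneys alone the order differed, with Cyp2j5 (245 FPKM) first, Cyp4b1 at 74.5 FPKM and Cyp2a5 at 26.7 FPKM. Together the 8 gave between 80.3% and 88.5% of the summed FPKM of the 45 genes in each kidney. The sum itself was 1147 ± 156 FPKM (SD, n = 3) in Ctr, 1213 ± 177 FPKM (SD, n = 4) in Lpr and 1381 ± 63.4 FPKM (SD, n = 4) in DNase, and the ranges of the 3 groups overlapped.

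The make-up of that sum differed between the groups. The Cyp2j genes held 355 ± 25.3 FPKM in Ctr, 302 ± 25.9 FPKM in Lpr and 333 ± 41.9 FPKM in DNase. Cyp4b1 alone held 74.5 ± 38.1 FPKM in Ctr, 351 ± 94.9 FPKM in Lpr and 322 ± 30.6 FPKM in DNase, so that its ranges in the MRL/lpr groups lay above that of Ctr. The Cyp2d genes gave 241 ± 47.0 FPKM in Ctr, 140 ± 32.0 FPKM in Lpr and 185 ± 8.63 FPKM in DNase. The Cyp2a pair gave 136 ± 11.5 FPKM in Ctr, 174 ± 41.4 FPKM in Lpr and 244 ± 50.1 FPKM in DNase. The 2 Cyp4a genes gave 125 ± 29.1 FPKM in Ctr, 65.5 ± 23.5 FPKM in Lpr and 115 ± 12.4 FPKM in DNase. The Cyp2c genes went from 31.8 ± 7.78 FPKM in Ctr to 2.99 ± 0.85 FPKM in Lpr and 5.02 ± 0.82 FPKM in DNase. These sums are descriptions (SD, with 3 Ctr, 4 Lpr and 4 DNase kidneys) and were not tested.

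**Figure D1:**
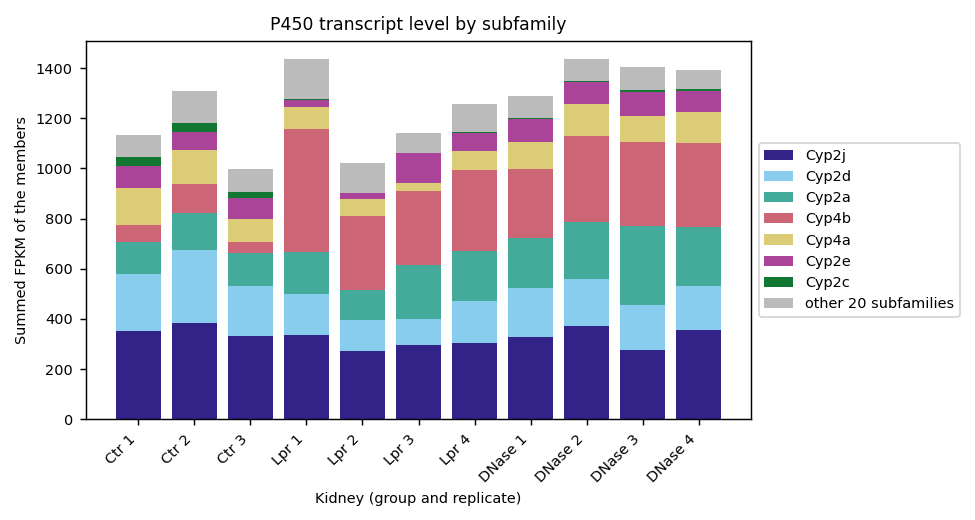
Summed FPKM of the 45 P450 genes in each of the 11 kidneys, with 1 bar per kidney and 1 colour per subfamily (the Cyp2j, Cyp2d, Cyp2a, Cyp4b, Cyp4a, Cyp2e and Cyp2c genes, and the other 20 subfamilies in grey). The Cyp4b part is 41.4 to 116 FPKM in the Ctr kidneys and 277 to 492 FPKM in the MRL/lpr kidneys, while the Cyp2c part is 22.8 to 36.9 FPKM in Ctr and at most 6.14 FPKM elsewhere.

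Gene by gene, Lpr was compared with Ctr to see how the P450 genes differ between MRL/lpr and control kidneys. In edgeR's quasi-likelihood test, 43 of the 45 genes could be tested and 10 passed an adjusted p of 0.05, where 10.2% of all 16074 genes tested did. Of these, 3 were higher in Lpr (7.27% of all genes) and 7 were lower (2.92% of all genes). With an absolute log2 fold change above 2 as well, 1 was higher (4.65% of all genes) and 4 were lower (1.13% of all genes). The CPM ranges of the groups did not overlap for 8 genes higher in Lpr (14.2% of all genes) and 12 lower (11.4% of all genes). The median log2 fold change was -0.25 over the 43 genes and 0.03 over all genes. Without Ctr replicate 1 the counts were 1 higher and 2 lower, without Ctr replicate 2 they were 2 higher and 2 lower, and without Ctr replicate 3 they were 2 higher and 5 lower. Without Lpr replicate 1 there were 4 lower, without Lpr replicate 2 there were 3 lower, and without Lpr replicate 4 there were 5 higher. Nothing in the labels says how the mice were housed or processed together. The p-values set the group difference against the spread between these kidneys, and they cannot separate group from housing or processing shared within a group.

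DNase was compared with Ctr to see where the treated MRL/lpr kidneys stood. Here 41 genes were tested and 15 passed, beside 21.7% of all 16100 genes, with 5 higher (13.1% of all genes) and 10 lower (8.61% of all genes). Ranges did not overlap for 7 genes higher in DNase (18.2% of all genes) and 11 lower (13.7% of all genes). The median log2 fold change was -0.22 over the 41 genes and 0.00 over all genes. Past an absolute log2 fold change of 2, 2 were higher (4.56% of all genes) and 4 were lower (1.45% of all genes). Both comparisons use the same Ctr kidneys. In all, 16 of the 45 genes passed in at least 1 comparison, and Cyp2c38 and Cyp8b1 had too few counts to be tested in any.

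**Figure D2:**
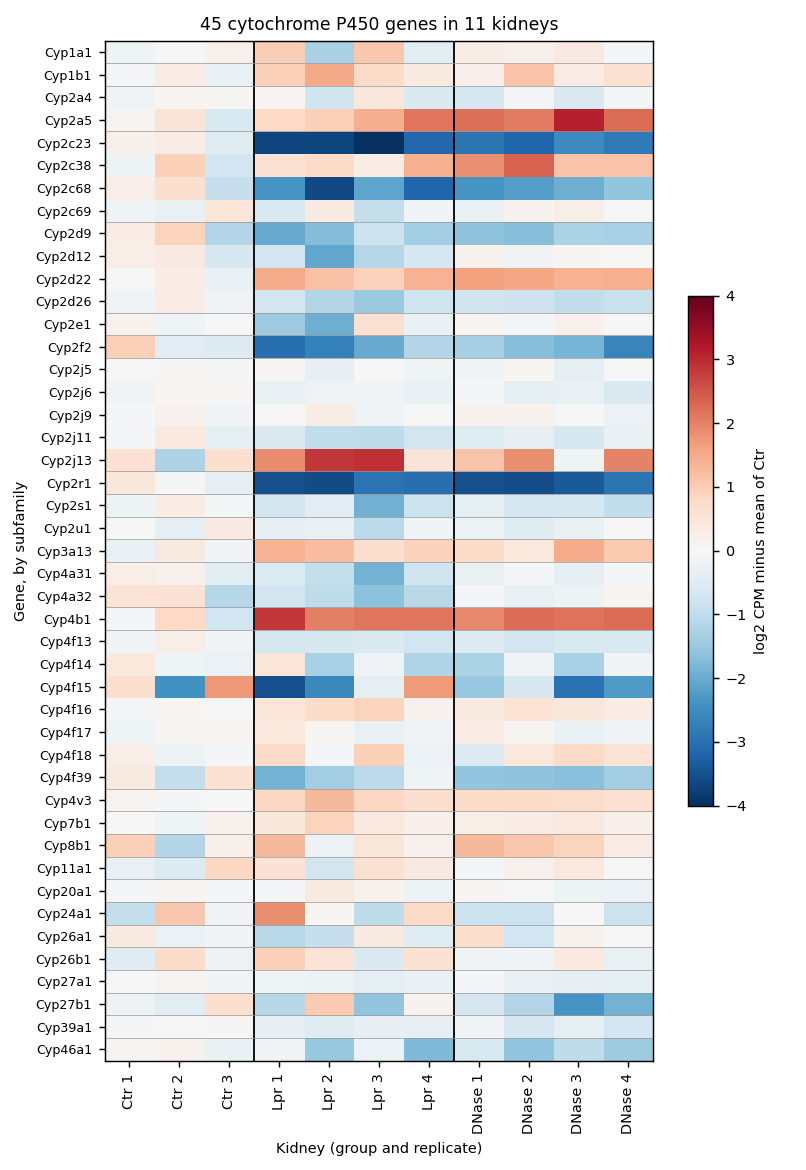
Log2 CPM of the 45 P450 genes minus the mean of the Ctr kidneys, by gene (rows, ordered by subfamily) and kidney (columns, 3 Ctr, 4 Lpr and 4 DNase), in red where higher and blue where lower. Cyp2c23, Cyp2c68, Cyp2r1 and Cyp2f2 are blue in all 8 MRL/lpr kidneys, and Cyp4b1, Cyp2a5, Cyp2d22 and Cyp4v3 are red in all 8.

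**Figure D3:**
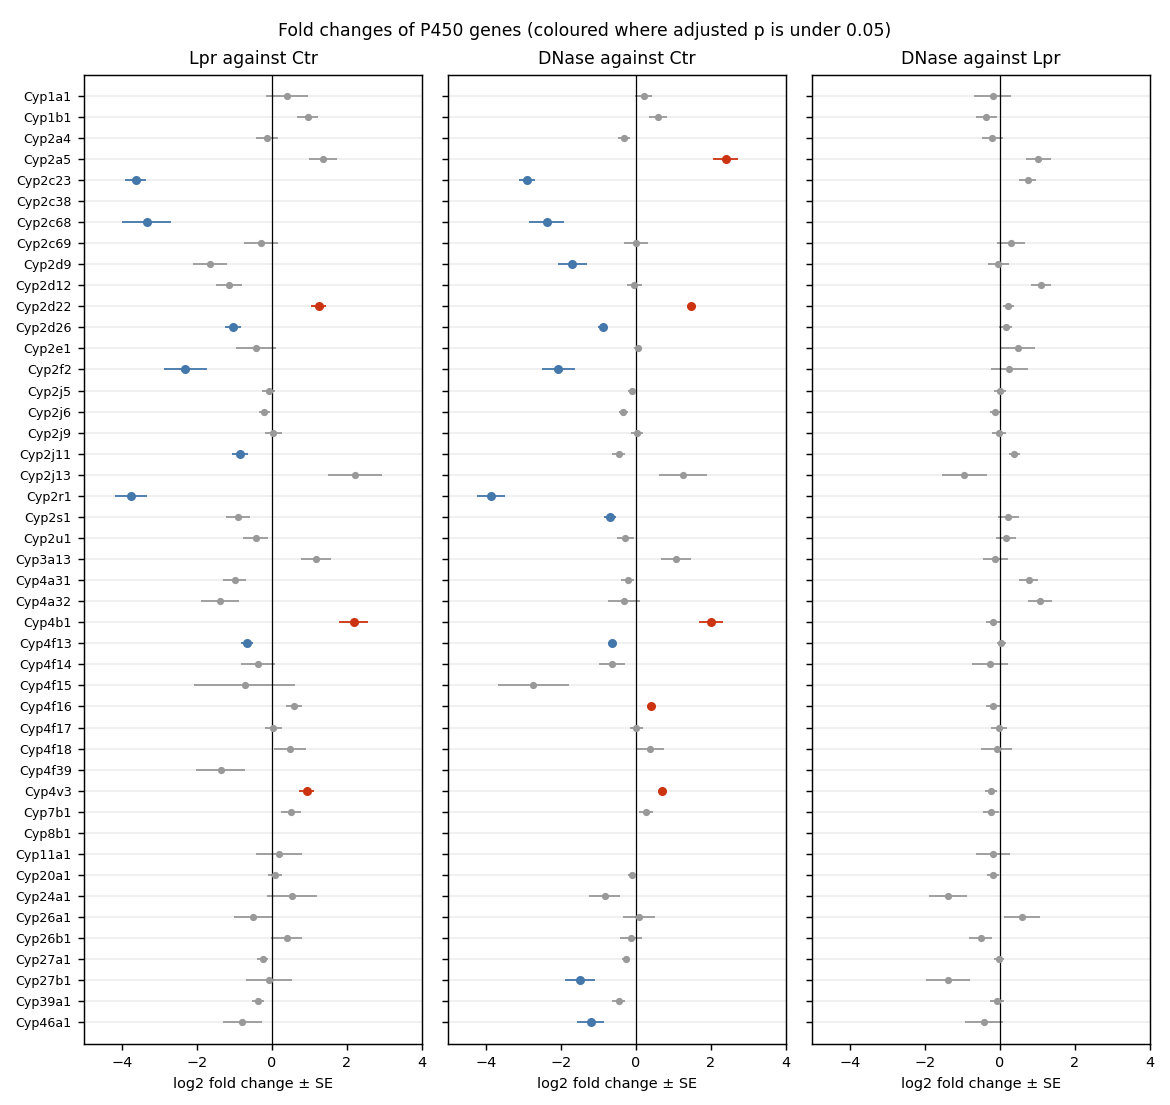
Log2 fold change of each P450 gene (points) with its standard error (bars) in 3 comparisons, from edgeR, coloured where the adjusted p is under 0.05 (red higher, blue lower) and left blank where a gene was not tested. In Lpr against Ctr 10 points are coloured, in DNase against Ctr 15, and in DNase against Lpr 0.

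Some of the genes named below lie in blocks of related genes and others, such as Cyp2r1 and Cyp2c23, lie alone (GRCm38, positions from GENCODE M21). Cyp2r1, the vitamin D enzyme of the endoplasmic reticulum, is on chromosome 7 from 114549682 to 114562972, minus strand, and Cyp2c23, an arachidonic acid epoxygenase also known as Cyp2c44, is on chromosome 19 from 44005022 to 44029208, minus strand. Cyp2c68 lies away from Cyp2c23, in a block of Cyp2c genes on chromosome 19 between 39389556 and 39886799. Cyp4b1 ends a block with Cyp4a31 and Cyp4a32 on chromosome 4 between 115563649 and 115647723, with 3122 bases between Cyp4a32 and Cyp4b1. Cyp2s1, Cyp2a4, Cyp2a5 and Cyp2f2 share chromosome 7 between 25802475 and 27133660, and Cyp2d22, Cyp2d9, Cyp2d12 and Cyp2d26 share chromosome 15 between 82370527 and 82794294.

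RefSeq promoters (GRCm38.p6) were at hand for 36 of the 45 genes. The 250 bases before the start are shown for 4 of the genes that differed between Ctr and MRL/lpr kidneys. They are also shown for the pair Cyp2a4 and Cyp2a5, whose deposited counts moved apart although their sequences are nearly alike. Reads from that pair can be assigned to either gene. Capitals mark AGGTCA, the letters of a nuclear receptor site, and GCGTG, the core to which the aryl hydrocarbon receptor binds, each read on either strand. Promoters without capitals hold neither. A match is a match of letters only.
Cyp2r1 (chr7:114562973-114563222, minus strand): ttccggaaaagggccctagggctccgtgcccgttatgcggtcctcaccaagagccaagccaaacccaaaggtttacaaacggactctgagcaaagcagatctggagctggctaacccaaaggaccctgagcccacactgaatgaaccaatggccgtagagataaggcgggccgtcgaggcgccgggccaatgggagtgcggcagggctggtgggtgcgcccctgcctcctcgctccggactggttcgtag
Cyp2c68 (chr19:39741102-39741351, minus strand): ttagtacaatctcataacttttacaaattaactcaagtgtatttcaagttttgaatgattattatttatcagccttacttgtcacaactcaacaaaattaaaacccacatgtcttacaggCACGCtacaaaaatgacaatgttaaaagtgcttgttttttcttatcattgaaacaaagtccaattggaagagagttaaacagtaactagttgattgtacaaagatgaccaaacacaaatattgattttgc
Cyp2f2 (chr7:27119705-27119954, plus strand): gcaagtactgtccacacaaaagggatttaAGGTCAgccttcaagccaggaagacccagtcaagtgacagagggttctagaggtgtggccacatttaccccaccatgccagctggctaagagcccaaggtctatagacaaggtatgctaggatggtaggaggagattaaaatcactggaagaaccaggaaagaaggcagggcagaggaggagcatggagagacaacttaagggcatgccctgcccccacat
Cyp4b1 (chr4:115647722-115647971, minus strand): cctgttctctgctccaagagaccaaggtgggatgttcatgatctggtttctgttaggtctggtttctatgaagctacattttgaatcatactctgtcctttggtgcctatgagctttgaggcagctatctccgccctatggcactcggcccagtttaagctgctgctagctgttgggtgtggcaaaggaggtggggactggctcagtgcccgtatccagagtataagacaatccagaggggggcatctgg
Cyp2a4 (chr7:26306942-26307191, plus strand): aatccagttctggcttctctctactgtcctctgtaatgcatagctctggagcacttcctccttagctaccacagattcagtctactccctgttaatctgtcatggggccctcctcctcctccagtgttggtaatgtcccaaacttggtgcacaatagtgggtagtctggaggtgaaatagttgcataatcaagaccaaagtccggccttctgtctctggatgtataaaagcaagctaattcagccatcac
Cyp2a5 (chr7:26835089-26835338, plus strand): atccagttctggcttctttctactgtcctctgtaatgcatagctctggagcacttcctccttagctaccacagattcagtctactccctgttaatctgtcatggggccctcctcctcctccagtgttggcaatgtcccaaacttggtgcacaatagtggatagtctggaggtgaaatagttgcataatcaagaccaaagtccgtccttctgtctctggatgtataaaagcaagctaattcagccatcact
When the last pair is aligned, 245 of 250 bases are the same. Among the 36 promoters AGGTCA was found in 2 (5.56%, against 13.8% of all 27025 promoters of the same length) and GCGTG in 11 (30.6% against 28.2%). Cyp24a1, Cyp2c23, Cyp2d12, Cyp2d22, Cyp2u1, Cyp39a1, Cyp4a31, Cyp4f17 and Cyp7b1 were not among the 36.

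Of the epoxygenase genes, Cyp2c23 fell most, whereas Cyp2j5 stayed near its control level. Cyp2c23 stood at 79.4, 85.0 and 49.8 CPM in the Ctr kidneys, at 5.46, 5.36, 4.17 and 7.82 CPM in Lpr and at 9.18, 7.42, 11.8 and 9.76 CPM in DNase. Every MRL/lpr kidney was thus below every Ctr kidney. It was 12.4-fold lower in Lpr (log2 fold change -3.63, SE 0.27, adjusted p = 0.000322) and 7.47-fold lower in DNase (log2 fold change -2.90, SE 0.20, adjusted p = 1.74e-05), and no kidney left out ended either call. Cyp2c68, at 1.16, 1.5 and 0.48 CPM in Ctr, was at 0.141, 0.026, 0.177 and 0.0566 CPM in Lpr and at 0.139, 0.163, 0.202 and 0.283 CPM in DNase. Its log2 fold change was -3.34 (SE 0.65, adjusted p = 0.0123) in Lpr and -2.38 (SE 0.46, adjusted p = 0.00527) in DNase, the former lost without Ctr replicate 1 (adjusted p = 0.0547) or Ctr replicate 2 (0.0573). Cyp2c68 and Cyp2c69 share 96.5% of their coding bases, and the deposited counting could have moved reads between them. With their counts summed the log2 fold change was -1.37 (adjusted p = 0.0372) in Lpr and -0.96 (adjusted p = 0.0263) in DNase, while Cyp2c69 alone had -0.29 (adjusted p = 0.774) and 0.00 (adjusted p = 0.998).

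The 5 Cyp2j genes lie in 1 block of chromosome 4, between 96027534 and 96664154, and 1 of them, Cyp2j11, passed in Lpr against Ctr. Cyp2j5 was at 933, 970 and 920 CPM in Ctr, at 980, 756, 948 and 833 CPM in Lpr and at 876, 990, 715 and 960 CPM in DNase. The groups overlapped, with log2 fold changes of -0.09 (SE 0.16) in Lpr and -0.09 (SE 0.12) in DNase, neither past the test. Cyp2j11 was at 265, 359 and 212 CPM in Ctr against 182, 137, 136 and 163 CPM in Lpr, so that it fell by 0.84 on the log2 scale (SE 0.21, adjusted p = 0.0371). That call was lost without any of Ctr replicates 1 and 2 and Lpr replicates 1, 2 and 4, with adjusted p values of 0.117, 0.168, 0.0542, 0.108 and 0.0745. In DNase, Cyp2j11 was at 194, 218, 175 and 225 CPM and the difference from Ctr had an adjusted p of 0.0836. Cyp2j6 and Cyp2j9 had log2 fold changes between -0.33 and 0.04 in all 3 comparisons, and Cyp2j13, at 0.128 to 0.629 CPM in Ctr and 0.566 to 3.22 CPM in Lpr, had 2.22 (SE 0.73, adjusted p = 0.103). The epoxides that these enzymes make are opened by the hydrolases Ephx1 and Ephx2, and neither of these 2 genes passed in any comparison.

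In the Cyp2d block, Cyp2d22 was higher in Lpr than in Ctr, while Cyp2d9, Cyp2d12 and Cyp2d26 had negative log2 fold changes. Cyp2d22 rose from 31.5, 39.1 and 26.8 CPM in Ctr to 90.6, 72.9, 61.3 and 83.7 CPM in Lpr and 97.9, 93.0, 85.2 and 85.9 CPM in DNase. Neither MRL/lpr group overlapped Ctr. The rise was 2.39-fold in Lpr (log2 1.26, SE 0.20, adjusted p = 0.005) and 2.79-fold in DNase (log2 1.48, SE 0.12, adjusted p = 4.42e-05). Cyp2d26, the highest of the block per gene length in every group, was at 309, 434 and 316 CPM in Ctr, at 207, 153, 124 and 200 CPM in Lpr and at 201, 197, 177 and 188 CPM in DNase. It fell by 1.03 on the log2 scale in Lpr (SE 0.22, adjusted p = 0.0205) and by 0.89 in DNase (SE 0.12, adjusted p = 0.000771). In Lpr the call was lost without Ctr replicate 1 (adjusted p = 0.0569), Ctr replicate 2 (0.101), Ctr replicate 3 (0.0577) or Lpr replicate 2 (0.0654). Cyp2d9, a testosterone hydroxylase that is higher in male mice, passed in DNase (log2 -1.69, SE 0.38, adjusted p = 0.0117) and had -1.65 in Lpr (SE 0.46, adjusted p = 0.0578), with Ctr kidneys at 19.5, 29.6 and 7.10 CPM. It shares 186 exon bases with the pseudogene Gm46501 on the same strand.

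Cyp2a4 and Cyp2a5 have 98.5% of 1485 coding bases in common, and their deposited counts did not move together. Cyp2a5 was at 48.6, 64.8 and 29.8 CPM in Ctr, at 79.1, 87.2, 125 and 199 CPM in Lpr and at 208, 190, 391 and 212 CPM in DNase. Every MRL/lpr kidney was above every Ctr kidney, and the difference passed in DNase (5.25-fold, log2 2.39, SE 0.33, adjusted p = 0.00075) but not in Lpr (log2 1.37, SE 0.38, adjusted p = 0.0556). Cyp2a4 was at 177, 209 and 199 CPM in Ctr, at 206, 112, 264 and 130 CPM in Lpr and at 122, 183, 130 and 187 CPM in DNase, with log2 fold changes of -0.12 and -0.32 that did not pass. Cyp2a5 made up 13.0% to 23.7% of the counts of the pair in Ctr, 27.8% to 60.5% in Lpr and 50.9% to 75.1% in DNase. Since reads from so similar a pair can be assigned to either gene, the summed counts are the safer measure, and they were 0.74 higher on the log2 scale in DNase than in Ctr (SE 0.16, adjusted p = 0.00813) and 0.32 higher in Lpr (SE 0.23, adjusted p = 0.501).

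Near them on chromosome 7, Cyp2f2, known for activating naphthalene in the lung, was at 5.26, 1.98 and 1.86 CPM in Ctr, at 0.283, 0.365, 0.621 and 1.16 CPM in Lpr and at 1.03, 0.786, 0.706 and 0.386 CPM in DNase. Neither MRL/lpr group overlapped Ctr, with log2 fold changes of -2.31 in Lpr (SE 0.58, adjusted p = 0.0385) and -2.06 in DNase (SE 0.45, adjusted p = 0.00978). The Lpr call was lost without any 1 of Ctr replicates 1, 2 and 3 and Lpr replicates 1, 2 and 3, with adjusted p values of 0.197, 0.0645, 0.0631, 0.088, 0.0998 and 0.0507. Cyp2f2 shares 274 exon bases with Gm15883 on the opposite strand, and whether the counting used strand was not given in the sources used here. Cyp2s1 passed in DNase (log2 -0.68, SE 0.16, adjusted p = 0.0137) and had -0.90 in Lpr (SE 0.32, adjusted p = 0.134), and shares 260 exon bases with Gm26707 on the opposite strand. Cyp2e1 differed little between Ctr (163, 132 and 150 CPM) and DNase (156, 144, 165 and 149 CPM). In Lpr it was at 53.4, 38.3, 223 and 123 CPM, a wider range than that of both other groups together. The 223 CPM came from Lpr replicate 3, the library that stood apart by gene length. The other Lpr kidneys were below every Ctr and every DNase kidney. Adipoq, an adipocyte marker, was at 72.2 and 59.8 CPM in Lpr replicates 3 and 4, against 0.904 and 1.87 CPM in Lpr replicates 1 and 2. In Ctr it was at 3.44 to 73.5 CPM and in DNase at 0.279 to 17.9 CPM. Any link of fat or gene length to the Cyp2e1 values was not tested. With all Lpr kidneys, Cyp2e1 had a log2 fold change of -0.42 against Ctr (SE 0.53, adjusted p = 0.711).

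Cyp4b1 had the highest positive log2 fold change of the Cyp4 genes among the 45. Its level was 130, 237 and 80.6 CPM in Ctr, 956, 546, 603 and 595 CPM in Lpr and 514, 632, 616 and 633 CPM in DNase. The lowest MRL/lpr kidney had more than the highest Ctr kidney, and the rise was 4.55-fold in Lpr (log2 2.19, SE 0.39, adjusted p = 0.00799) and 4.02-fold in DNase (log2 2.01, SE 0.31, adjusted p = 0.00156). The Lpr call was lost without Ctr replicate 1 (adjusted p = 0.0517). Its neighbour Cyp4a31 went the other way in Lpr, at 382, 364 and 237 CPM in Ctr against 220, 167, 86.1 and 185 CPM in Lpr, without passing (log2 -0.99, SE 0.31, adjusted p = 0.0904). In DNase, Cyp4a31 was at 260, 307, 249 and 310 CPM (log2 -0.22 against Ctr, SE 0.16). Cyp4a32 was low everywhere, at 0.236 to 1.31 CPM. Both share more than 96% of their coding bases with each other and with Cyp4a10, which had 173565 counts over the 11 kidneys, so their counts are uncertain.

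Cyp4v3, the mouse counterpart of a human fatty acid hydroxylase gene known from an inherited disease of the retina, rose from 11.6, 9.98 and 10.5 CPM in Ctr to 18.8, 26.0, 19.1 and 17.1 CPM in Lpr and 17.7, 17.7, 17.4 and 16.3 CPM in DNase. Neither MRL/lpr group overlapped Ctr, with log2 fold changes of 0.94 in Lpr (SE 0.20, adjusted p = 0.0194) and 0.69 in DNase (SE 0.10, adjusted p = 0.00103). The Lpr call was lost without Ctr replicate 1 (adjusted p = 0.0741), 2 (0.0974) or 3 (0.0889), and 313 exon bases are shared with Gm45753 on the same strand. Of the 7 Cyp4f genes, which act on leukotrienes and long fatty acids, only Cyp4f13 passed in Lpr. It fell from 26.6, 33.4 and 26.1 CPM in Ctr to 17.6, 18.3, 19.1 and 16.7 CPM in Lpr and 19.9, 17.3, 18.5 and 18.6 CPM in DNase. Its log2 fold changes were -0.67 (SE 0.16, adjusted p = 0.0319) and -0.63 (SE 0.11, adjusted p = 0.00243). The Lpr call was lost without Ctr replicate 1, 2 or 3 (adjusted p = 0.0963, 0.16 and 0.084) or Lpr replicate 1, 2 or 4 (0.0868, 0.0691 and 0.0822). Cyp4f16 passed in DNase at a log2 fold change of 0.41 (SE 0.11, adjusted p = 0.0265) and had 0.60 in Lpr (SE 0.22, adjusted p = 0.14). Cyp4f18, which inactivates leukotriene B4 in neutrophils, stayed between 0.474 and 1.42 CPM in all kidneys and passed in no comparison.

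**Figure D4:**
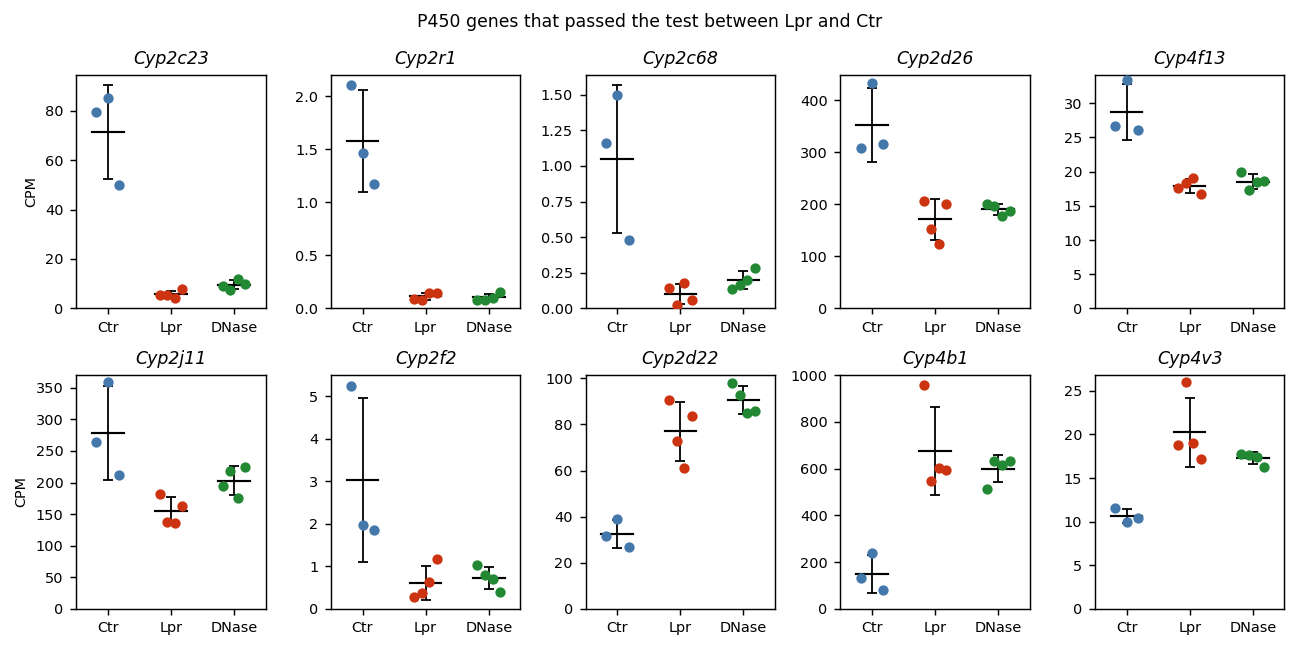
CPM of the 10 P450 genes that passed in Lpr against Ctr, with 1 point per kidney, the group mean as a line and ± 1 SD as bars (3 Ctr, 4 Lpr and 4 DNase kidneys, each panel on its own linear axis from 0). Cyp4b1, Cyp2d22 and Cyp4v3 lie higher in both MRL/lpr groups than in Ctr, and the other 7 lie lower in Lpr than in Ctr, while for Cyp2j11 2 of the 4 DNase kidneys (218 and 225 CPM) lie within the Ctr range of 212 to 359 CPM.

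Vitamin D passes through 4 of these enzymes: Cyp2r1 and Cyp27a1 make its circulating form, mostly in the liver, Cyp27b1 of the proximal tubule makes the active hormone, and Cyp24a1 breaks both down. Cyp2r1, scarce in the kidney, had 78, 46 and 39 counts in the Ctr kidneys and between 3 and 6 counts in each of the 8 MRL/lpr kidneys. It was 13.5-fold lower in Lpr (log2 -3.76, SE 0.43, adjusted p = 0.00125) and 14.5-fold lower in DNase (log2 -3.86, SE 0.38, adjusted p = 0.000114), and both calls held whichever kidney was left out. Cyp27a1 was at 33.7, 35.9 and 30.7 CPM in Ctr, at 29.9, 28.8, 25.7 and 27.6 CPM in Lpr and at 31.8, 27.1, 26.3 and 25.6 CPM in DNase, and did not pass (adjusted p = 0.396 and 0.0787).

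Cyp27b1 varied more among the Lpr kidneys than between the groups. It was at 5.18, 4.37 and 9.17 CPM in Ctr, at 2.66, 12.3, 1.95 and 6.49 CPM in Lpr and at 3.68, 2.60, 1.11 and 1.57 CPM in DNase. All DNase kidneys were below all Ctr kidneys (log2 -1.48, SE 0.41, adjusted p = 0.029). The call was lost without Ctr replicate 1 (adjusted p = 0.0553) or 3 (0.117), or without DNase replicate 2 (0.0553), 3 (0.0527) or 4 (0.0796). Cyp24a1 was at 41.8, 173 and 75.2 CPM in Ctr, at 294, 86.9, 40.0 and 141 CPM in Lpr and at 45.3, 44.8, 81.3 and 44.9 CPM in DNase. Its groups overlapped, with an adjusted p of 0.7 in Lpr and 0.2 in DNase, and it shares 83 exon bases with Pfdn4 on the opposite strand. Of 4 other genes of vitamin D and phosphate handling (Cubn, Kl, Lrp2 and Slc34a1), only Kl, the co-receptor for the phosphate hormone, passed, at a log2 fold change of -0.45 in DNase against Ctr (SE 0.11, adjusted p = 0.0187).

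The enzymes that clear retinoic acid did not pass. Cyp26b1 ranged from 4.70 to 13.6 CPM and Cyp26a1 from 0.198 to 0.837 CPM over the 11 kidneys. Of 6 other retinoid genes, Aldh1a1 and Aldh1a2, which make retinoic acid, rose in Lpr (log2 1.43, adjusted p = 0.0144, and 1.95, adjusted p = 0.0108) and in DNase (1.87, adjusted p = 7e-04, and 1.48, adjusted p = 0.00281). Dhrs3, which reduces retinal, rose in DNase by 0.27 (adjusted p = 0.0394). The 2 targets of the aryl hydrocarbon receptor did not pass either. Cyp1b1 was at 31.6, 40.4 and 27.0 CPM in Ctr and at 62.8, 93.0, 55.6 and 42.2 CPM in Lpr, with no overlap (log2 0.96, SE 0.28, adjusted p = 0.0729), and at 37.8, 71.6, 39.8 and 49.6 CPM in DNase. Cyp1a1 ranged from 0.703 to 3.87 CPM in Lpr, around the 1.62 to 2.07 CPM of Ctr.

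Of the genes of sterol and steroid metabolism, Cyp46a1, the cholesterol hydroxylase known from neurons, passed in DNase (log2 -1.21, SE 0.35, adjusted p = 0.036), from 0.998, 1.02 and 0.749 CPM in Ctr to 0.586, 0.271, 0.429 and 0.309 CPM. The call was lost without any 1 of Ctr replicates 1, 2 and 3 and DNase replicates 2, 3 and 4 (adjusted p = 0.112, 0.0946, 0.0569, 0.0859, 0.0646 and 0.0939). Cyp4f16 likewise lost its call without Ctr replicate 1 (0.0935) or 3 (0.0694) or DNase replicate 2 (0.0737) or 3 (0.0563). Cyp7b1, an oxysterol hydroxylase, had log2 fold changes of 0.52 in Lpr (adjusted p = 0.338) and 0.28 in DNase (adjusted p = 0.34). Cyp39a1, of the same pathway, had -0.36 (adjusted p = 0.255) and -0.46 (adjusted p = 0.0808). Cyp11a1, which starts steroid synthesis, was at 0.104 to 0.42 CPM. The adrenal enzymes Cyp11b1 and Cyp21a1, outside the set, had 3 and 5 counts over all kidneys. The remaining genes, Cyp20a1, Cyp2u1, Cyp3a13, Cyp4f14, Cyp4f15, Cyp4f17 and Cyp4f39, passed in no comparison.

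Lpr and DNase kidneys were compared to ask whether the treatment moved the P450 genes. None of 39 genes tested passed in edgeR (0% of all 15832 genes did). With DESeq2, 0 of the P450 genes passed, the smallest adjusted p among them being 0.0655 for Cyp2d12. Calls of DESeq2 over all genes are not given here, and the study reports genes that passed its own threshold in this comparison. At an unadjusted p under 0.05, 6 were higher in DNase (2.17% of all genes) and 2 were lower (3.43% of all genes). The CPM ranges did not overlap for 3 genes higher in DNase (Cyp2d12, Cyp4a31 and Cyp4a32, with 2.08% of all genes) and for 0 lower (1.68% of all genes). Cyp4a31 (99735 counts) and Cyp4a32 (272 counts) are also both among the 6. At 96.0% coding identity they could share reads, so they may not be 2 separate results. The median log2 fold change was -0.04 over the 39 genes and -0.02 over all genes.

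Cyp2d12 had the smallest p. Its level was 93.1, 99.4 and 49.3 CPM in Ctr, 45.5, 18.1, 34.8 and 46.9 CPM in Lpr and 84.0, 71.7, 81.4 and 75.8 CPM in DNase, so that every DNase kidney lay above every Lpr kidney and within the Ctr range. The log2 fold change of DNase against Lpr was 1.10 (SE 0.26, adjusted p = 0.82 from edgeR). Next on the higher side were Cyp4a32 (1.08, SE 0.32), Cyp2c23 (0.74, SE 0.23), Cyp4a31 (0.77, SE 0.25) and Cyp2a5 (1.02, SE 0.33), each with an adjusted p of 0.82. For Cyp2c23 the DNase level remained far below Ctr, while for Cyp2a5 DNase was farther from Ctr than Lpr was. On the lower side stood Cyp24a1 (-1.38, SE 0.51, adjusted p = 0.85), Cyp27b1 (-1.39, SE 0.59), Cyp26b1 (-0.51, SE 0.31), Cyp2j13 (-0.94, SE 0.60) and Cyp4v3 (-0.23, SE 0.16), the last 4 with an adjusted p of 0.854. Without Lpr replicate 3, Cyp4a31 had 0.56 (adjusted p = 0.272) and Cyp24a1 -1.69 (adjusted p = 0.272).

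**Figure D5:**
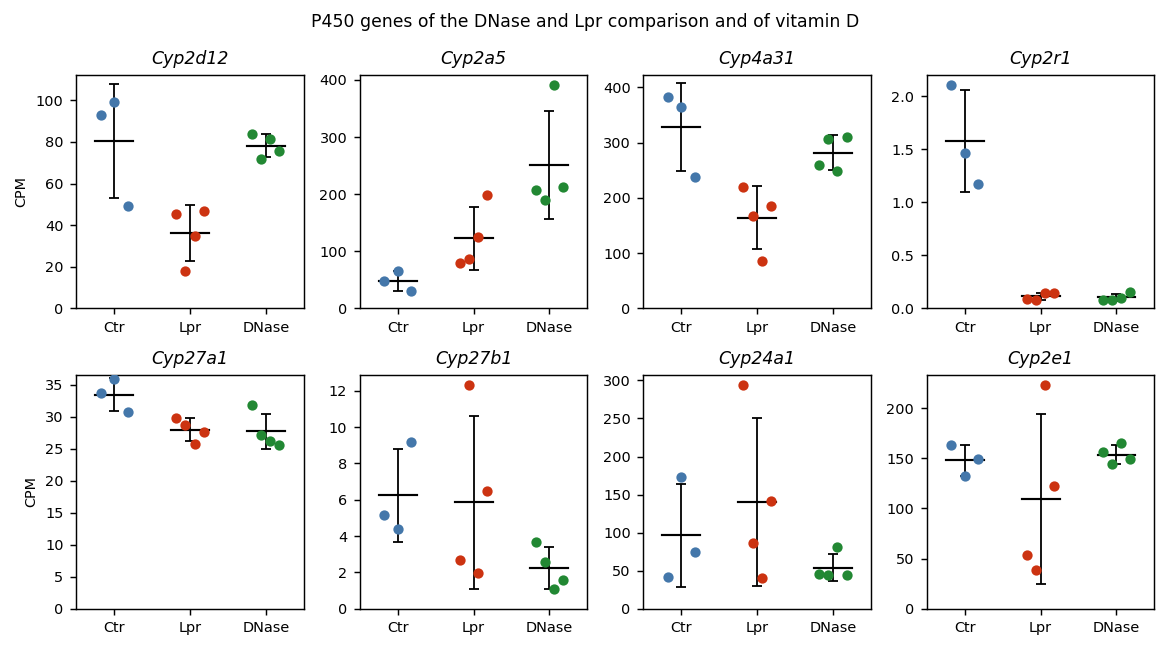
CPM of 8 P450 genes, named for the comparison of DNase with Lpr (Cyp2d12, Cyp2a5, Cyp4a31), for vitamin D (Cyp2r1, Cyp27a1, Cyp27b1, Cyp24a1) or for their spread (Cyp2e1), with 1 point per kidney, the group mean as a line and ± 1 SD as bars. The DNase points of Cyp2d12 lie between 71.7 and 84.0 CPM, above the Lpr points at 18.1 to 46.9 CPM. The Lpr points of Cyp2e1 spread from 38.3 to 223 CPM, the highest being Lpr replicate 3.

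Of 10 genes for electron and haem supply, including Por, Alas1 and Cyb5a, none passed in Lpr and only Cyb5r3 passed in DNase (log2 0.37, SE 0.09, adjusted p = 0.0146). Of 5 P450 genes under other symbols, Cyp4a12a, an omega-hydroxylase that is higher in male mice, rose from 35 to 70 counts per Ctr kidney to 631 to 855 in Lpr (13.1-fold, log2 3.71, SE 0.29, adjusted p = 0.000338) and 862 to 2205 in DNase (28.5-fold, log2 4.83, SE 0.38, adjusted p = 3.25e-05). Its close copy Cyp4a12b passed in DNase (log2 1.75, adjusted p = 0.0173), as did Cyp51 of cholesterol synthesis (log2 -0.56, adjusted p = 0.00172). Of 10 regulators, Nr1i3, the receptor CAR that drives several Cyp2 genes in the liver, fell from 28, 22 and 14 counts in Ctr to 0, 0, 6 and 1 in Lpr (log2 -3.55, SE 0.92, adjusted p = 0.0432) and 2, 1, 4 and 6 in DNase (log2 -2.82, SE 0.52, adjusted p = 0.00394). Ppara, the fatty acid receptor behind the Cyp4a genes, passed in DNase at -0.35 (adjusted p = 0.0226), and Hnf4a, Vdr, Ahr and Nr1i2 passed in no comparison.

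Some marker genes of other cell types also differed between Ctr and the MRL/lpr kidneys. Of 9 leukocyte markers, 8 were higher in Lpr and 9 in DNase than in Ctr, with sums of 114 to 167 CPM in Ctr, 735 to 1383 CPM in Lpr and 559 to 1040 CPM in DNase. Of 7 hepatocyte markers tested, 4 were lower and 1 higher in Lpr, and 5 were lower and 1 higher in DNase, with sums of 88.3 to 94.2 CPM in Ctr, 22.2 to 42.9 CPM in Lpr and 21.7 to 26.3 CPM in DNase. The defining liver P450 genes Cyp1a2, Cyp2c29 and Cyp3a11 had 1, 5 and 29 counts over all 11 kidneys. Of 12 proximal tubule markers, 1 was higher in Lpr, their median log2 fold change being -0.42, and 2 were higher and 2 lower in DNase, with a median of -0.28. No adrenal, fibroblast, endothelial or adipocyte marker passed in either comparison with Ctr, and none of any list passed between DNase and Lpr. The part of these cell types in the P450 values was not tested.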

How the data were processed

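RNA from 11 mouse kidneys (3 Ctr, 4 Lpr, 4 DNase) was sequenced as 100 bp paired reads. Read counts per gene were deposited by the authors unnormalized, and the labels name fastp and HTSeq for reads and counting, DESeq2, R 3.2.0 and the build mm10. The study's methods name HTSeq also for aligning reads to reference genes. A separate aligner, the annotation, the strand setting and the treatment of reads that match several genes were not given in the sources used here. The authors also deposited FPKM, the same counts scaled for gene length and library total, which served for levels between genes. No column was left out (0).

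Groups were compared in pairs with edgeR 4.0.16 in R 4.3.3 (filterByExpr, TMM, quasi-likelihood F-test) on all genes, with Benjamini-Hochberg adjustment over all genes tested and a threshold of 0.05. An absolute log2 fold change above 2, used by the study, was counted beside it. Fold changes are given for the first group named against the second, with standard errors from the same fit. CPM were computed from total counts adjusted by TMM factors, not from the total counts alone. The spread is between kidneys and depth limits genes under about 1 CPM. Both comparisons with Ctr share its 3 kidneys. Replicate numbers were shared between groups, and the main tests did not treat them as pairs. The scripts were tested on simulated counts.

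Values are given for the genes with the smallest p in each direction (up to 10 that passed in Lpr against Ctr, and 5 in DNase against Lpr), the 8 highest by FPKM, and genes of set roles in vitamin D, retinoid, steroid and fatty acid metabolism. The other genes that passed in DNase against Ctr are named, as are companion genes that passed, with a few that did not. 1 gene of the companion lists and 1 promoter motif are not reported here. The P450 genes, the companion and marker lists and the tests were chosen with earlier results of these data known, so no test over a list was made.

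Alternatives were other scalings, filters and fits, DESeq2 1.42.0, limma 3.58.1 on log2(FPKM + 1) and log2(FPKM + 0.1) of genes with a mean FPKM of 0.5 or more, a replicate block, each kidney left out in turn, and, chosen after seeing the data, near-identical copies summed. Positions and coding sequences came from GENCODE M21 and promoters from RefSeq. Coding identity was taken with blastn 2.17.0+ between the longest reading frames. Plots used matplotlib 3.10.9 under python 3.11.15.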

Additional observations from a re-analysis of the deposited data

Results flagged for a closer look

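In groups of 4 kidneys, 1 value was singled out where its gap to the nearest other kidney divided by the range of log2 CPM exceeded Dixon's critical value. Of 90 tests (45 genes in Lpr and in DNase) 4 exceeded it, and chance alone gives about 1 in 20. Cyp2a5 in DNase replicate 3 was at 391 CPM, against 190 to 212 CPM in the other DNase kidneys. Cyp24a1 in the same kidney was at 81.3 CPM, against 44.8 to 45.3 CPM. Cyp4b1 in DNase replicate 1 was at 514 CPM, against 616 to 633 CPM. Cyp39a1 in Lpr replicate 2 was at 8.10 CPM, against 9.01 to 9.12 CPM. Lpr replicate 3, which stood apart in its relation to gene length, gave 0 of the 4 values.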

How the results depend on the processing

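None of the genes counted here changed direction under an alternative that gave a value, and the other P450 genes were not followed across alternatives. Of 184 alternative values for the 10 genes that passed in Lpr against Ctr, 146 stayed past the threshold and 38 did not, and of 275 for the 15 genes of DNase against Ctr, 246 stayed and 29 did not. All 192 values for the 10 genes named in DNase against Lpr stayed short of it. Some scarce genes got no value under stricter filters.

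In Lpr against Ctr, 3 genes were higher and 7 lower. The higher count was 6 with DESeq2 and 6 with all 3 groups in one fit, and with an absolute log2 fold change above 2 it was 2 with DESeq2. The lower count was 11 with all groups in one fit, 3 with limma on log2(FPKM + 1) and 4 on log2(FPKM + 0.1) with or without a filter, and past the fold limit it was 1 in either filtered limma fit. In DNase against Ctr, where 2 were higher past the fold limit, 1 was with RLE size factors, DESeq2, a minimum of 1 CPM in 3 libraries, all groups in one fit, or copies summed. The lower count was 6 with limma on log2(FPKM + 0.1) without a filter (10 in the report), and past the fold limit 1 with limma on log2(FPKM + 1) or log2(FPKM + 0.1), and 2 on the latter without a filter. The cause of these shifts was not tested.

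With each kidney left out in turn, Lpr against Ctr gave 1 to 5 higher (0 to 2 past the fold limit) and 2 to 9 lower (2 to 4), DNase against Ctr gave 4 to 6 higher (1 to 3) and 8 to 13 lower (3 to 6), and DNase against Lpr gave 0 to 0. Past the fold limit, DNase against Ctr had 1 higher without Ctr replicates 1 or 3 or DNase replicates 2, 3 or 4.

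With the replicate block, 6 genes were lower in DNase than in Ctr. Same-numbered kidneys correlated at -0.28 to 0.16 over 10 pairs, 1 of them over 0.1. Of 11 libraries, 2 correlated best with their own number. These values showed no pairing by number, and whether the numbers mark a shared batch was not tested.

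Genes under 1 CPM rest on few reads, and how the deposited counting split reads of near-identical copies was not tested. Changing the scaling moved the median of all genes by less than 0.1 on the log2 scale.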
